A study of Mus musculus with 9 samples.

Results

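The Notch genes described here are 10 members of the Notch signalling pathway, taken by symbol from a table of 51912 mouse genes: the receptors Notch1, Notch2 and Notch3, the ligands Jag1, Jag2 and Dll1, the receptor-modifying enzyme Lfng, and the target genes Hes1, Hey1 and Nrarp. All 10 were found, and all 10 passed the filter on low counts. They were measured by RNA sequencing in organoids, small epithelial fragments isolated from mammary tumours of FVB/NJ mice and grown in collagen I gels with FGF2 for 48 h. In 5 samples, called E-cad-KO, both alleles of Cdh1 were floxed (Cdh1fl/fl). Cdh1 encodes the adhesion molecule E-cadherin. In 4 samples, called WT, both were normal (Cdh1+/+). What both groups shared was the PyMT oncogene under the MMTV promoter, which is active in mammary epithelium (MMTV::PyMT), the allele that reports Cre activity, (R26)pCA::mT/mG, and overnight exposure to an adenovirus that delivers Cre. The ages of the mice and the floxed exons are not given in the labels used here. Whole gels were frozen and the labels name no sorting on the reporter, so any cells in which Cre did not act would be part of a sample.

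Notch receptors are transmembrane proteins that are activated by ligands of the Jagged and Delta-like families on a neighbouring cell, so the pathway works through direct cell contact. Binding exposes the receptor to cleavage by an ADAM protease and then by gamma-secretase, and the freed intracellular domain joins the DNA-binding protein RBPJ and a Mastermind coactivator to switch on genes such as Hes1, Hey1 and Nrarp. In the mouse mammary gland, Notch activity is known for favouring the luminal over the basal lineage, and Fringe enzymes such as LFNG tune which ligands a receptor answers to.

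The Cdh1 levels of the groups did not overlap, with lower values in E-cad-KO, at 91.3 ± 15.4 CPM (E-cad-KO, SD, n = 5) and 189 ± 44.1 CPM in WT (SD, n = 4, log2 fold change -1.05, edgeR adjusted p = 0.0275), where CPM is counts scaled by TMM to a common library size. The call of Cdh1 held in 4 of the 9 fits that left out a single library, and not without WT 1 and WT 4 together (edgeR adjusted p = 0.0545). Library totals ran from 44890302 to 64763645 counts, and 1 CPM was at least 44.2 counts. WT 1 and WT 4 were the extremes in RNA of macrophages. The summed level of 10 macrophage markers was 8.47 to 35.6 CPM in E-cad-KO, against 6.69 CPM in WT 1 and 73.2 CPM in WT 4, with 8 of 9 tested markers negative in log2 fold change and 0 called. WT 3 was close to WT 4 in other lists, at 18.1 and 19.1 CPM over 10 endothelial markers, against 7.47 to 12.0 CPM in E-cad-KO. Over 8 fibroblast markers WT 3 and WT 4 were at 310 and 349 CPM, against 127 to 213 CPM in E-cad-KO. Of these 8, 3 were positive in log2 fold change, 5 negative and 0 called. Results that changed without WT 1 and WT 4 are given both ways, and those fits keep WT 3. Luminal markers were high in every library, with summed levels of 4269 to 5435 CPM in E-cad-KO and 3546 to 4855 CPM in WT over 8 genes. Of these 8, 6 had a positive log2 fold change and 0 were called by edgeR, with 5 at an unadjusted p under 0.05, 4 higher and 1 lower. The keratin gene Krt8 (log2 fold change 0.39) and the claudin gene Cldn7 (0.44) were higher without overlap, as Notch2 and 4.28% of all tested genes were. The luminal transcription factor gene Elf5 stood at -0.38 and the keratin gene Krt19 at -0.57, both with overlap. The part of the luminal share in the Notch values was not tested. The T cell marker Cd3e had 0 counts in all 9 libraries. In bulk samples such as these, fewer cells of a type and less RNA per cell cannot be told apart.

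None of the 10 Notch genes was called in E-cad-KO against WT by edgeR's quasi-likelihood test at an adjusted p under 0.05, where 1.41% of the 17289 tested genes were called, 0.908% higher and 0.503% lower. At an unadjusted p under 0.05 there were 3, all higher in E-cad-KO (Notch2, Dll1 and Lfng), where 8.74% of all tested genes were higher at this p and 16.7% were under it in either direction. DESeq2 called 2 (Notch2 at an adjusted p of 0.00902 and Lfng at 0.0258, with 6.98% of all genes called), limma-voom called 0 (with 2.94% of all genes called), and edgeR with a macrophage marker score as covariate called Notch2 and Lfng (with 6.74% called). Of the 10 genes, 6 had a positive log2 fold change and 4 a negative one, where 48.0% of all tested genes were positive. Their median was 0.07, beside a median of -0.01 over all tested genes. Every E-cad-KO library exceeded every WT library for 2 of the 10, Notch2 and Dll1, while 4.28% of all tested genes were higher without overlap and 8.11% did not overlap in either direction.

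**Figure D1:**
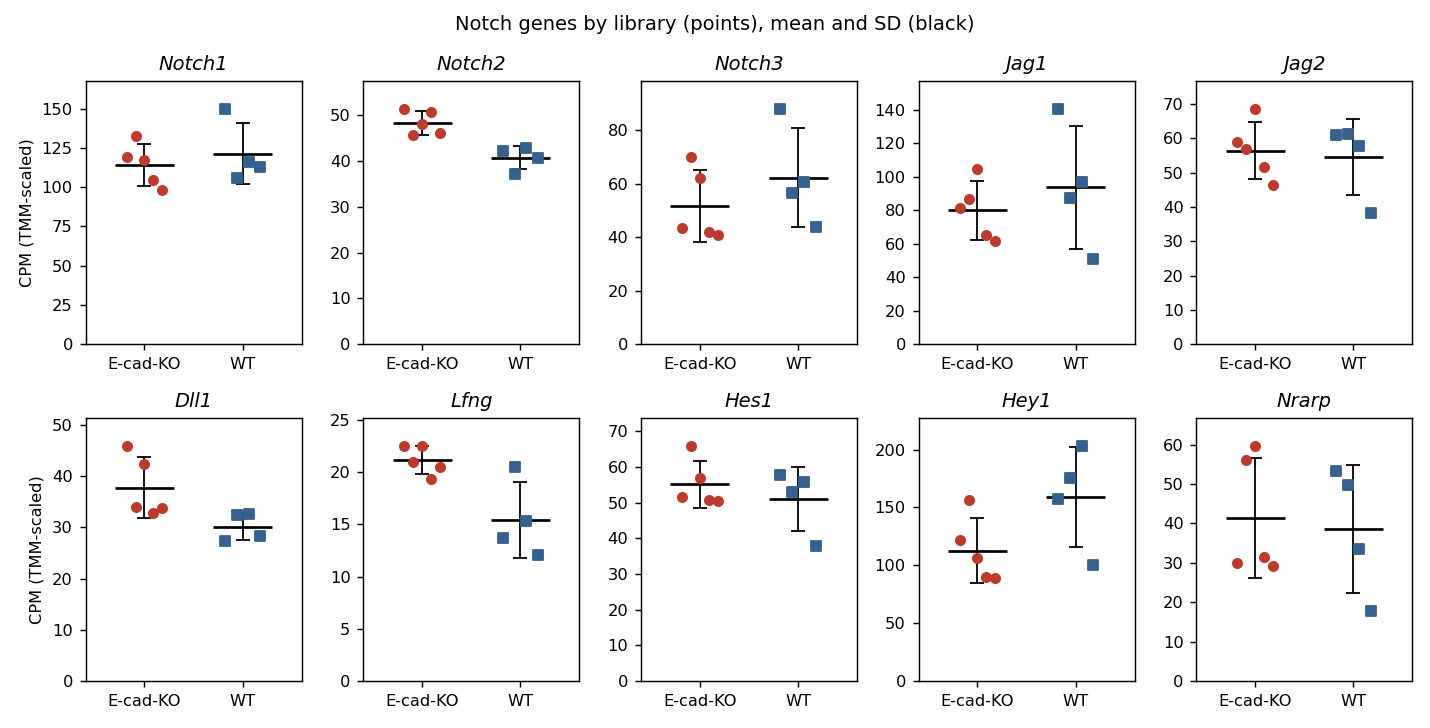
TMM-scaled CPM (vertical axis, from 0) of the 10 Notch genes in each library, with 5 E-cad-KO libraries as red circles and 4 WT libraries as blue squares. Black bars give the mean and SD. The groups are apart for Notch2 and Dll1 and overlap for the other genes.

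Among the receptors, Notch2 (ENSMUSG00000027878; GRCm38 chromosome 3, 98013527 to 98150361) was the member with the smallest p. It was at 51.3, 45.6, 48.1, 50.6 and 46.0 CPM in E-cad-KO 1 to 5, and at 42.2, 37.2, 42.8 and 40.7 CPM in WT 1 to 4. The lowest E-cad-KO library was above the highest WT library, and replicates differed little in either group. The log2 fold change of Notch2 was 0.25 (SE 0.06, 95% interval 0.11 to 0.38, edgeR adjusted p = 0.0808), a fold of 1.19. Without WT 1 and WT 4 its log2 fold change was 0.28 (edgeR adjusted p = 0.178).

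Notch1 (ENSMUSG00000026923; chromosome 2, 26457903 to 26516663), the receptor with the highest CPM, stood at 119, 132, 117, 104 and 98.4 CPM in E-cad-KO 1 to 5. In WT 1 to 4 it stood at 149.5, 106, 116 and 113 CPM. The groups overlapped, with WT 1 the highest library and E-cad-KO 4 and E-cad-KO 5 below all WT libraries. The difference of Notch1 had a 95% interval of -0.34 to 0.17 on the log2 scale around -0.08 (SE 0.11, edgeR adjusted p = 0.776). Notch3 (ENSMUSG00000038146; chromosome 17, 32120820 to 32166852), which in the mouse mammary gland marks luminal progenitors, was at 43.3, 70.1, 62.1, 41.9 and 41.0 CPM in E-cad-KO 1 to 5. WT 1 to 4 held 87.8, 56.6, 60.6 and 43.9 CPM of Notch3. High and low libraries occurred in both groups, and the log2 fold change of Notch3 was -0.27 (SE 0.23, edgeR adjusted p = 0.617). Without WT 1 alone it was -0.051, and without WT 4 alone -0.40. Notch3 is also known from mural cells of vessels, whose 6 markers summed to 18.2 to 35.6 CPM in E-cad-KO and 12.0 to 56.7 CPM in WT, all 6 negative in log2 fold change and 0 called. With the mural score as a covariate the log2 fold change of Notch3 was -0.25 (edgeR adjusted p = 0.485). The part of mural RNA in the Notch3 values was not tested beyond this fit. Notch4, a receptor best known from endothelium and as the target of MMTV insertions in mouse mammary tumours, averaged 4.45 CPM (SD 1.77, n = 5) in E-cad-KO and 3.39 CPM (SD 0.67, n = 4) in WT, with overlap.

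Of the ligands, Dll1 (ENSMUSG00000014773; chromosome 17, 15367354 to 15376872), a Delta-like ligand that in mice marks a basal stem cell population of the mammary gland, was higher in all 5 E-cad-KO libraries. It was at 45.9, 34.1, 42.4, 32.9 and 33.7 CPM in E-cad-KO 1 to 5, and at 27.4, 32.4, 32.6 and 28.3 CPM in WT 1 to 4. The separation was narrow, between 32.9 CPM in E-cad-KO 4 and 32.6 CPM in WT 3, and with upper-quartile scaling the groups of Dll1 overlapped. The log2 fold change of Dll1 was 0.32 (SE 0.11, 95% interval 0.07 to 0.58, edgeR adjusted p = 0.18), and without WT 1 and WT 4 it was 0.22 (edgeR adjusted p = 0.521).

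The Jagged ligands did not separate the groups. Jag1 (ENSMUSG00000027276; chromosome 2, 137081456 to 137116644) was at 81.4, 86.5, 104.8, 65.0 and 61.5 CPM in E-cad-KO 1 to 5, against 140.3, 87.2, 96.8 and 50.7 CPM in WT 1 to 4. All E-cad-KO libraries lay between the WT extremes, which were WT 1 and WT 4. The log2 fold change of Jag1 was -0.23 (SE 0.27, edgeR adjusted p = 0.731), while without WT 1 alone it was 0.03 and without WT 4 alone -0.44. Jag2 (ENSMUSG00000002799; chromosome 12, 112907819 to 112929776) was at 58.8, 56.8, 68.5, 51.6 and 46.3 CPM in E-cad-KO 1 to 5, against 61.0, 61.3, 57.7 and 38.2 CPM in WT 1 to 4. WT 4 was again the lowest library. The log2 fold change of Jag2 was 0.05, with a 95% interval of -0.29 to 0.39 (edgeR adjusted p = 0.917).

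Lfng (ENSMUSG00000029570; chromosome 5, 140607320 to 140615545) encodes lunatic fringe, an enzyme of the Golgi that extends O-fucose on Notch receptors. In mice its loss from mammary epithelium is known to lead to basal-like tumours. It had the largest positive log2 fold change of the 10, 0.46 (SE 0.14, 95% interval 0.16 to 0.76, edgeR adjusted p = 0.123), a fold of 1.38. Lfng was at 22.5, 20.97, 22.5, 19.3 and 20.5 CPM in E-cad-KO 1 to 5, against 13.7, 20.5, 15.3 and 12.1 CPM in WT 1 to 4. The E-cad-KO libraries differed little among themselves, 4 of 5 were above all WT libraries, and WT 2 alone reached the E-cad-KO range. Without WT 2 the log2 fold change of Lfng was 0.63 (edgeR adjusted p = 0.0315, with 0.599% of genes called), and without WT 1 and WT 4 it was 0.24 (edgeR adjusted p = 0.393).

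Of the 8 members with a promoter window, only Lfng held TGGGAA in it, the sequence that RBPJ is known to bind. Hes1 and Hey1 had no window. Both strands were searched in windows of 300 bases (250 before to 50 after a gene's start, RefSeq, GRCm38.p6). The windows of Lfng, of Hey2 and of Hes5 are shown because their genes, all known to be Notch-regulated, had very different levels here. Hey2 and Hes5 were picked for this after their values were seen. Capitals mark TGGGAA or, where the match is on the other strand, TTCCCA.
Lfng, chr5:140607091-140607390, plus strand: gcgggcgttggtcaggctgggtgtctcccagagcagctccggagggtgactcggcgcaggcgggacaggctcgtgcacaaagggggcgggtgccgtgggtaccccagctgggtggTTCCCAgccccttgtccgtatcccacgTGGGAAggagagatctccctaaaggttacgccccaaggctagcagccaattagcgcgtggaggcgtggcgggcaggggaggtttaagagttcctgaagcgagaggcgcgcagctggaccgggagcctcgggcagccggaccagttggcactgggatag
Hey2, chr10:30842734-30843033, minus strand: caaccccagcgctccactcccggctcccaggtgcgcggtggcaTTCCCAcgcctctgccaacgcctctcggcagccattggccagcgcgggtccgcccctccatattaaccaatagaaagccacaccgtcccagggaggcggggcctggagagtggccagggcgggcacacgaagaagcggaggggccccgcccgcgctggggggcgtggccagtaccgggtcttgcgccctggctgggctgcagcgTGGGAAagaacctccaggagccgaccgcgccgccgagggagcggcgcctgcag
Hes5, chr4:154960673-154960972, plus strand: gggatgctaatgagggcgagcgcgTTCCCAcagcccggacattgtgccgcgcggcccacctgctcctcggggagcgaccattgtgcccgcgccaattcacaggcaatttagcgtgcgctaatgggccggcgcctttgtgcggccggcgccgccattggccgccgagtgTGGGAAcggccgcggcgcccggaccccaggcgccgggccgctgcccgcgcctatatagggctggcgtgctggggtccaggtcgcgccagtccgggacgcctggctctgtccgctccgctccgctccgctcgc
Each window held 2 matches, 1 on each strand. In Lfng they began 135 and 108 bases before the start, in Hey2 207 and 3 bases before it, and in Hes5 226 and 82 bases before it. In Lfng the match nearer the start, and in Hey2 both matches, lay within the longer CGTGGGAA or its reverse complement. Lfng averaged 21.2 CPM in E-cad-KO and 15.4 CPM in WT, Hey2 averaged 3.70 CPM in E-cad-KO and 5.57 CPM in WT, and Hes5 had 1 count over all 9 libraries, in WT 3. The letters in these windows are a description and mark no bound site.

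Windows were found for 8 of the 10 members, 9 windows in all, with none matched for Hes1 and Hey1. TGGGAA was in 25.6% of all 32851 windows and CGTGGGAA in 0.734%, and each was in 1 of the 9 member windows. CACGTG and CACGCG, both known to be bound by Hes and Hey repressors, were in 7.15% and 9.27% of all windows. CACGTG was in 2 member windows (Lfng and Nrarp), where in Lfng it overlaps CGTGGGAA, and CACGCG was in 5 (Notch2, Jag1, Jag2, Lfng and 1 of the 2 windows of Dll1).

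The target genes differed in sign, and none was called. Hey1 (ENSMUSG00000040289; chromosome 3, 8663359 to 8667256), a transcriptional repressor, was at 122, 157, 106, 89.6 and 89.4 CPM in E-cad-KO 1 to 5, against 157, 176, 203 and 100.4 CPM in WT 1 to 4. E-cad-KO 4 and E-cad-KO 5 were below all WT libraries, and WT 4 fell within the E-cad-KO range. The log2 fold change of Hey1 was -0.50 (SE 0.22, 95% interval -1.002 to 0.01, edgeR adjusted p = 0.308). Its value was negative under all 22 alternatives run, from -0.74 to -0.34. Without WT 1 and WT 4 it was -0.74 (edgeR adjusted p = 0.193), with only WT 2 and WT 3 left in the WT group. Its relative Hey2, also a repressor, was at 3.79, 4.80, 3.28, 3.48 and 3.14 CPM in E-cad-KO 1 to 5, against 3.87, 6.34, 7.38 and 4.67 CPM in WT 1 to 4. In Hey2, 4 of 5 E-cad-KO libraries were below all WT libraries, with a log2 fold change of -0.59 (SE 0.21, edgeR adjusted p = 0.183), and of -0.89 without WT 1 and WT 4 (edgeR adjusted p = 0.0763).

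Hey genes are also known from endothelium. Of 10 endothelial markers 8 were tested, and all 8 had a negative log2 fold change, with 0 called by edgeR and 2 at an unadjusted p under 0.05. Their summed level was 7.47 to 12.0 CPM in E-cad-KO and 9.15 to 19.1 CPM in WT. The highest level of a single marker in any library was 7.06 CPM, that of Pecam1 in WT 4. Pecam1 was at 2.93 to 4.97 CPM in E-cad-KO and 4.57 to 7.06 CPM in WT (log2 fold change -0.65, edgeR adjusted p = 0.118). The endothelial claudin Cldn5 was at 0.837 CPM at most. With the endothelial score as a covariate the log2 fold change was -0.61 for Hey1 and -0.53 for Hey2, neither called. The part of endothelial RNA in the Hey1 and Hey2 values was not tested beyond this fit.

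Hes1 (ENSMUSG00000022528; chromosome 16, 30064384 to 30067796), the most widely used Notch target among the repressors, was at 51.6, 65.9, 56.9, 50.7 and 50.5 CPM in E-cad-KO 1 to 5. It was at 57.8, 53.1, 55.7 and 37.9 CPM in WT 1 to 4. The groups overlapped, with WT 4 the lowest library, and the log2 fold change of Hes1 was 0.11, with a 95% interval of -0.17 to 0.39 (edgeR adjusted p = 0.733). Nrarp (ENSMUSG00000078202; chromosome 2, 25180758 to 25183339), a feedback inhibitor that binds the Notch intracellular domain, varied most relative to its mean in both groups, with 30.0, 56.1, 59.7, 31.5 and 29.2 CPM in E-cad-KO 1 to 5. WT 1 to 4 held 53.4, 49.7, 33.6 and 17.7 CPM of Nrarp. High and low libraries occurred in both groups, and the 95% interval of its log2 fold change was wide, -0.71 to 0.90 around 0.10 (edgeR adjusted p = 0.93). Exons of Nrarp overlap those of Gm38287 on the other strand over 2051 bases, and exons of Notch1, Notch3 and Dll1 overlap genes on the other strand, as those of Notch2 do on its own strand. These partners had at most 0.675 CPM in any library. Reads left uncounted because of an overlap would not show in these values.

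**Figure D2:**
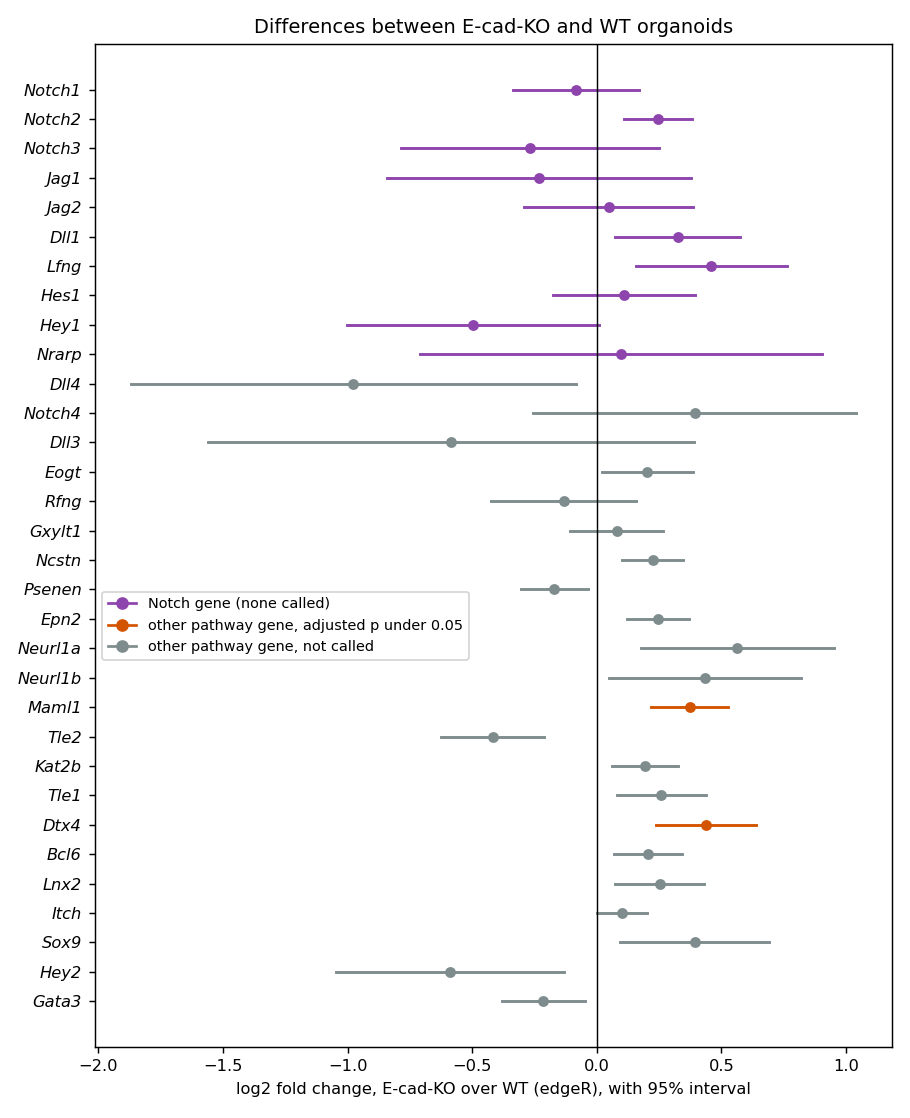
Log2 fold change of E-cad-KO over WT (horizontal axis, edgeR) with its 95% interval for the 10 Notch genes (purple) and other named pathway genes (orange where called, grey otherwise). Among the Notch genes, Notch2, Dll1 and Lfng have intervals above 0 without passing the adjusted threshold, and Maml1 and Dtx4 are the genes called.

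Jag1, Notch3 and Nrarp varied between libraries together with the basal keratins. Krt14, the keratin of basal and myoepithelial cells, was at 3049, 5437, 6529, 3252 and 3045 CPM in E-cad-KO 1 to 5, against 9278, 6454, 4223 and 1874 CPM in WT 1 to 4. The 4 libraries with the most Krt14 (WT 1, E-cad-KO 3, WT 2 and E-cad-KO 2) were the 4 with the most Nrarp, and WT 4 was the lowest in Krt14, Nrarp and Jag1. WT 1 was highest in Krt14, Jag1 and Notch3. Over the whole basal list of 7 genes, 6 had a negative and 1 a positive log2 fold change, 0 were called, and the summed level was 3470 to 7803 CPM in E-cad-KO and 2394 to 11470 CPM in WT. The list did not vary as 1 group, so the keratins stand for only some of its genes. Trp63, the basal transcription factor, was lowest in WT 4, as Krt14 was. The other 4 genes, Acta2, Cnn1, Oxtr and Mylk, all known from contractile cells, were lowest in WT 1, where Krt5 and Krt14 were highest. Acta2, for example, was at 48.8 to 112 CPM in E-cad-KO, against 35.0 CPM in WT 1 and 144 CPM in WT 4.

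A fit with the mean log2 CPM of Krt5 and Krt14 as a covariate was chosen after this pattern was seen. Jag1, Notch3 and Nrarp had narrower errors in it, and their log2 fold changes also moved upward. The keratins were picked because these genes varied with them in the same libraries, so the narrower errors follow from that choice. A call of Nrarp in this fit is therefore no separate evidence of a difference. The keratins themselves were lower on average in E-cad-KO, with log2 fold changes of -0.92 for Krt5 and -0.36 for Krt14, neither called. The part of this difference in the values of the fit was not tested. In this fit Nrarp had a log2 fold change of 0.49 (SE 0.08, edgeR adjusted p = 0.00434), against 0.10 (SE 0.36) without the covariate. Notch2 at 0.24 (edgeR adjusted p = 0.0341) and Lfng at 0.53 (edgeR adjusted p = 0.0201) were also called, so 3 of 10 were called beside 11.3% of all genes. Jag1 stood at 0.07 (SE 0.10) and Notch3 at -0.07 (SE 0.11), both not called. Hes1 was at 0.23 (edgeR adjusted p = 0.0676) and Jag2 at 0.20 (edgeR adjusted p = 0.114). The macrophage score as a covariate also narrowed the errors of Jag1 (-0.18, SE 0.10) and Notch3 (-0.26, SE 0.12). With that score Nrarp was at 0.16 (SE 0.17, edgeR adjusted p = 0.655), and none of the 3 was called. How the keratin level came to differ between libraries was not tested.

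**Figure D3:**
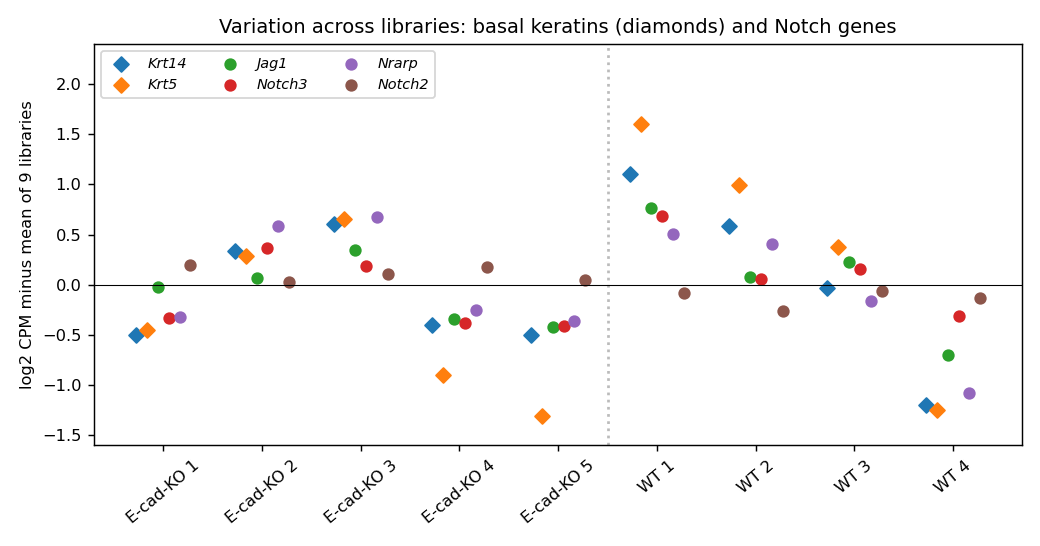
Log2 CPM minus the mean over 9 libraries (vertical axis) for the basal keratins Krt14 and Krt5 (diamonds) and for Jag1, Notch3, Nrarp and Notch2 (circles) in 5 E-cad-KO and 4 WT libraries. Jag1, Notch3 and Nrarp are high in WT 1 and low in WT 4, E-cad-KO 4 and E-cad-KO 5, as the keratins are. In E-cad-KO 1 the keratins, Notch3 and Nrarp are also low, while Jag1 is near its mean. Notch2 is higher in each E-cad-KO library than in any WT library.

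Levels of different genes were compared per kilobase of annotated exon. In E-cad-KO the targets led, with Hey1 at 34.5 ± 8.62, Hes1 at 27.1 ± 3.23 and Nrarp at 16.0 ± 5.89 CPM per kb (SD, n = 5), followed by Jag1 at 13.7 ± 3.00. Then came Dll1 at 8.96, Lfng at 8.45, Jag2 at 8.10, Notch1 at 8.03, Notch3 at 6.39 and Notch2 at 4.48 CPM per kb. Ranges overlapped between all neighbours in this order except between Hes1 and Nrarp and between Notch3 and Notch2. In WT, Hey1 at 48.7 ± 13.3 CPM per kb (SD, n = 4) was apart from Hes1 at 25.1 ± 4.44, Notch2 at 3.78 ± 0.24 was apart from Lfng at 6.14 ± 1.45, and all other neighbours overlapped. With the length of the longest coding transcript, Notch1 moved above Jag2, Dll1 and Lfng in E-cad-KO, at 12.0 CPM per kb.

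Within the receptors, Notch1 made up a median of 41.7% of the summed CPM per kb in E-cad-KO and 40.8% in WT, Notch3 30.5% in E-cad-KO and 37.7% in WT, and Notch2 24.6% in E-cad-KO and 19.3% in WT. The share of Notch2 was 18.5% to 26.8% in E-cad-KO and 15.2% to 21.6% in WT, so the groups overlapped. Notch4 reached at most 4.34% in E-cad-KO and 2.78% in WT. Within the ligands, Jag1 made up a median of 42.04% in E-cad-KO and 48.8% in WT, and Dll1 29.4% in E-cad-KO and 23.8% in WT. Dll4, the Delta-like ligand of endothelium, stayed under 1% in every library.

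**Figure D4:**
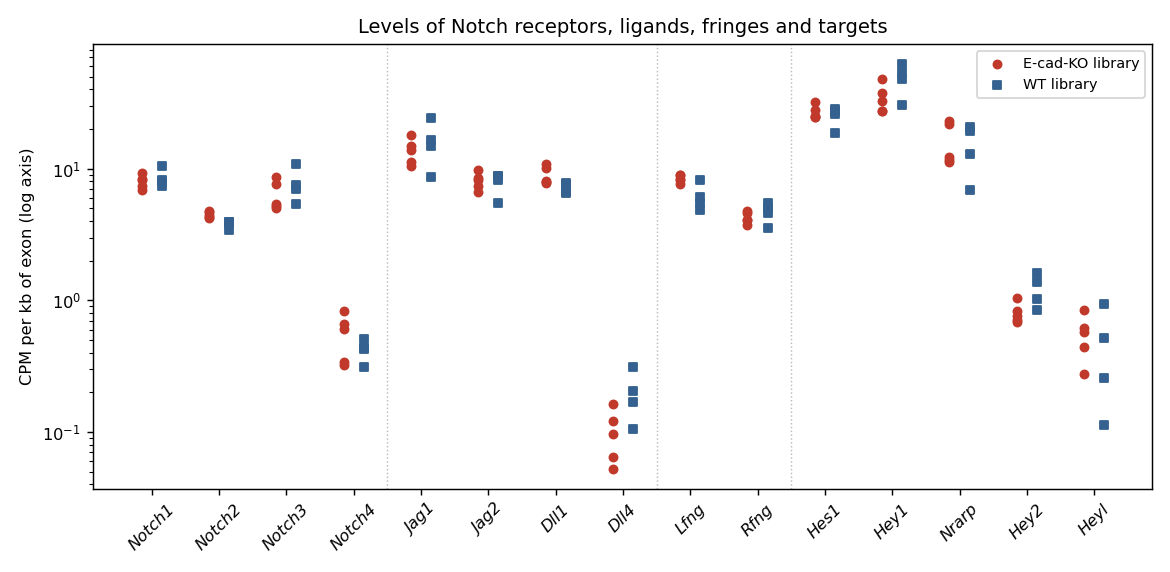
CPM per kb of annotated exon (log axis) in each library, 5 E-cad-KO as red circles and 4 WT as blue squares, for receptors, ligands, fringe enzymes and targets, separated by dotted lines. Hey1 and Hes1 are the highest, and Notch4, Dll4, Hey2 and Heyl are far below the other genes of their kind.

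Of the pathway genes outside the members, Maml1 and Dtx4 were called higher. Maml1 (ENSMUSG00000050567), a Mastermind coactivator that RBPJ and the Notch intracellular domain recruit, was at 25.8, 25.5, 27.4, 23.9 and 22.7 CPM in E-cad-KO 1 to 5, against 20.01, 18.4, 20.03 and 19.0 CPM in WT 1 to 4. Every E-cad-KO library was higher, and the log2 fold change of Maml1 was 0.37 (SE 0.07, edgeR adjusted p = 0.0356). Dtx4 (ENSMUSG00000039982), a ubiquitin ligase of the Deltex family, was at 13.6, 17.0, 14.5, 16.4 and 16.8 CPM in E-cad-KO 1 to 5, against 11.4, 10.7, 12.1 and 12.1 CPM in WT 1 to 4. It too was higher in all E-cad-KO libraries, with a log2 fold change of 0.44 (SE 0.09, edgeR adjusted p = 0.0457). With single libraries left out, Maml1 and Dtx4 were each called in 1 of 9 fits, and over all 22 alternatives Maml1 was called in 12 and Dtx4 in 9. Without WT 1 and WT 4 the adjusted p by edgeR was 0.112 for Maml1 and 0.128 for Dtx4.

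Around the 10 members, 80 other pathway genes were grouped by role, of which 70 were tested. Of these, 2 were called higher and 0 lower, beside 0.908% higher and 0.503% lower of all tested genes. A positive log2 fold change was found for 48 and a negative one for 22, where 48.0% of all tested genes were positive. The median was 0.08, beside -0.01 over all tested genes. The groups did not overlap for 11 of the 70 that were higher and 1 that was lower, beside 8.11% of all tested genes, and 20 of the 70 had an unadjusted p under 0.05, beside 16.7%. In the receptor cleavage list, 8 of 10 genes were positive and 0 were called by edgeR, with 3 at an unadjusted p under 0.05. The gamma-secretase subunit gene Ncstn (log2 fold change 0.23, edgeR adjusted p = 0.0747) was higher in every E-cad-KO library, while the subunit gene Psenen stood at -0.17. Exons of Ncstn overlap those of Copa on the other strand over 195 bases, and Copa was at 199.6 to 247 CPM. Reads there could be shared or left uncounted. Exons of Maml1 overlap those of Gm26542 on the other strand over 135 bases, and Gm26542 was at 0.181 to 0.717 CPM. Exons of Dll4, Psenen, Tle1, Tle2, Bcl6, Eogt, Neurl1a and Gata3 also overlap those of other genes.

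Ligand endocytosis genes were positive for 5 of 6, with 0 called by edgeR, 3 at an unadjusted p under 0.05 and a median of 0.20. The epsin gene Epn2 was at 68.9, 60.5, 60.8, 58.9 and 60.5 CPM in E-cad-KO 1 to 5, against 52.8, 51.9, 52.4 and 51.9 CPM in WT 1 to 4. All E-cad-KO libraries were higher and the WT libraries were nearly equal, with a log2 fold change of 0.25 (SE 0.06, edgeR adjusted p = 0.059). The ubiquitin ligase genes Neurl1a and Neurl1b stood at 0.56 and 0.43, both under 4 CPM. In the nuclear complex list, 15 of 19 were positive, and besides Maml1 the acetyltransferase gene Kat2b (0.19) and the corepressor gene Tle1 (0.26) were higher in every E-cad-KO library without being called. The corepressor gene Tle2 was lower in E-cad-KO without overlap, with a log2 fold change of -0.42 (SE 0.09, edgeR adjusted p = 0.0574).

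In the list named negative regulators, not all of whose genes inhibit the pathway, 10 of 13 tested genes were positive, with Dtx4 called. The ubiquitin ligase genes Lnx2 (0.25) and Itch (0.10) and the repressor gene Bcl6 (0.20) were higher in each E-cad-KO library and were not called. Genes that glycosylate the receptors were positive for 2 of 7, with 0 called by edgeR and 1 at an unadjusted p under 0.05, the glucosaminyl transferase gene Eogt (0.20). The fringe gene Rfng stood at -0.13 and the xylosyl transferase gene Gxylt1 at 0.08. Among receptors and ligands outside the members, 1 of 4 tested was positive, with 0 called by edgeR and 1 at an unadjusted p under 0.05, Dll4 (-0.98, at under 1.2 CPM in every library). Notch4 stood at 0.39 and the ligand gene Dll3 at -0.59. Of the other targets and relatives of Hes and Hey genes, 7 of 11 tested were positive, with 0 called by edgeR and 4 at an unadjusted p under 0.05. These included Sox9 (0.39), a transcription factor of mammary stem and progenitor cells, and Gata3 (-0.21), the regulator of luminal fate.

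**Figure D5:**
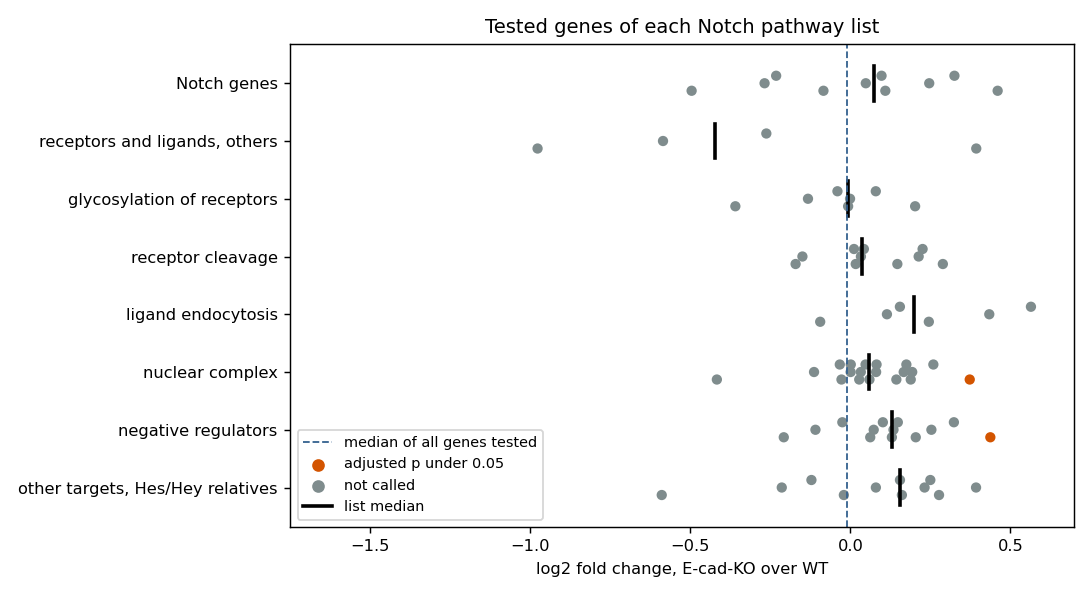
Log2 fold change of E-cad-KO over WT (horizontal axis) for each tested gene of the 10 Notch genes and of 7 lists of pathway genes, with the list median as a black bar. The dashed line is the median of all tested genes, -0.01. The 2 called genes, orange, lie in the nuclear complex and negative regulator lists.

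Notch2 was the member whose genes of most similar pattern were sought. Among tested genes with a mean of at least 5 CPM, the highest Pearson correlations of log2 CPM with Notch2 over the 9 libraries were those of Bcr (0.97), Nfatc1 (0.96), Evl (0.96), Ndel1 (0.96) and Prr14 (0.96). All were computed over the same 9 libraries, in which group differences are part of the pattern, and they are given as a description. Bcr and Nfatc1 were themselves called higher (log2 fold change 0.34 and 0.64, edgeR adjusted p = 0.0343 and 0.0419).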

How the data were processed

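Whole-gel RNA was purified on RNeasy columns and made into stranded TruSeq mRNA libraries, per the labels' protocols. Bowtie2, TopHat2, HTSeq and the GRCm38 build are named in the submitters' processing notes. Versions, the annotation release and whether counting used strand were not given in the sources used here. The values in the deposited table are raw counts, with no normalisation. Genes with overlapping exons could share reads, or reads over such exons could be left uncounted.

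The counts were tested with edgeR 4.0.16 in R 4.3.3 (quasi-likelihood F-test, robust dispersions, TMM, default filterByExpr, group as the only term, two-sided, Benjamini-Hochberg over 17289 genes), and calls were made at adjusted p under 0.05. The SE is the size of the log2 fold change divided by the square root of F. Alternatives used limma 3.58.1, DESeq2 1.42.0, other scaling and filters, marker scores as covariates, a replicate block and left-out libraries. The basal keratin covariate, the second gene length and the alternatives for groups that do not overlap were chosen after seeing the data. The routines were tested on simulated counts. GENCODE release M21 (GRCm38) gave positions, exon lengths and overlaps, and RefSeq (GRCm38.p6) the promoter windows.

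The members, lists and tests were chosen with earlier results of these data known. Named were all members, Cdh1, every called gene of a pathway list or otherwise the 3 with the smallest p, and the 5 genes most correlated with the member of smallest p among those with a mean of at least 5 CPM. Of lists with a called gene, further genes of small p were also named. Named after their values were seen were Krt5, Krt14, Trp63, Acta2, Cnn1, Oxtr, Mylk, Krt8, Krt19, Cldn7, Elf5, Pecam1, Cldn5, Cd3e, Hes5 and Copa. A pathway gene that the rule names is not reported here. Animals are not named in the labels, and the p-values rest on the spread between samples that the design text calls biological replicates. No pair of libraries was alike within sampling noise (smallest chi-square per degree of freedom 13.7).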

Additional observations from a re-analysis of the deposited data

Results flagged for a closer look

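In 4 of 68 groups examined for the named genes, 1 library lay far from the others of its group, where chance flags about 1 group in 20, or 3.4 groups. Cdh1 in E-cad-KO 2 was at 118 CPM, above the other 4 E-cad-KO libraries and below all WT libraries. Epn2 in E-cad-KO 1 was at 68.9 CPM, above the other E-cad-KO libraries, which were at 58.9 to 60.8 CPM. Jag2 in WT 4 was at 38.2 CPM, below the other WT libraries. Gata3 in WT 2 was at 38.6 CPM, below the other WT libraries, which were at 42.4 to 43.1 CPM.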

How the results depend on the processing

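The number of Notch genes called, 0 with edgeR, was 2 with DESeq2 and 2 with the macrophage score as a covariate (Notch2 and Lfng in both), 3 with the basal keratin covariate, and 0 to 1 with single libraries left out, the 1 being Lfng without WT 2. With upper-quartile factors the groups did not overlap for 1 gene, Notch2, in place of 2. With the longest coding transcript as length, 6 of 10 genes kept their place in the order of levels in E-cad-KO. The share of promoter windows with a motif was 0.734% for CGTGGGAA in place of 25.6% for TGGGAA. Signs turned for Notch1 (0.044 without WT 1 and WT 4), Jag1 (0.068 with the keratin covariate), Jag2 (-0.014 with limma-voom, -0.074 without WT 1 and WT 4, -0.028 with the endothelial score), Nrarp (-0.0084 without WT 1 and WT 4, -0.13 with the endothelial score) and Dll3 (0.21 without WT 1 and WT 4). With single libraries left out, log2 fold changes ran from -0.14 to 0.038 for Notch1, -0.40 to -0.051 for Notch3, -0.44 to 0.033 for Jag1, -0.089 to 0.12 for Jag2, -0.010 to 0.18 for Hes1 and -0.14 to 0.30 for Nrarp. The cause was not tested. Notch2, Notch3, Dll1, Lfng and Hey1 kept their sign in all 22 alternatives. Genes called over the whole table numbered 244, and 1206 with DESeq2, 509 with limma-voom, 1165, 444 and 544 with the macrophage, endothelial and mural scores, 1953 with the keratin covariate, 79 without WT 1 and WT 4, and 9 to 334 with single libraries left out. With upper-quartile factors 123 were higher and 151 lower, in place of 157 and 87.

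The replicate numbers were not taken as pairs, since the labels do not say that equal numbers share an animal, litter or day. Correlations of deviations from the group means ran from -0.32 to 0.28 over the 4 same-numbered pairs. By these, 1 of 4 WT libraries was closest to its own number. Other variation between libraries enters these correlations, so they cannot decide whether a litter or day was shared. With the replicate number as a block, 0 of the Notch genes and 0 genes in all were called by edgeR, with 2418 at an unadjusted p under 0.05, and Maml1 and Dtx4 were at an adjusted p of 0.143 and 0.205.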
